A study of Homo sapiens with 6 samples.

Results

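Antisense transcripts expressed in AN3CA, a human endometrial cancer line that retains *PAX2*, were examined together with the genes they are named after. A member was a listed gene whose symbol ends in -AS1, -AS2, -AS3 or -AS4, with symbols starting with HOX left out, and whose level was at least 0.5 TPM in at least 3 of the 6 libraries. TPM, in which the values of a library sum to 1000000, is a level per length and per library total. Of 17471 listed genes, 267 had such a symbol, 3 of them HOX names. Of the other 264, 150 were members and 114 lay below the level. Members were thus chosen by their measured TPM, whichever the group of the library, and their levels are given as a description.

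The 3 shEV libraries came from AN3CA cells with an empty lentiviral hairpin vector (labelled WT), and the 3 shPAX2 libraries from AN3CA cells with a lentiviral short hairpin RNA against *PAX2* (labelled PAX2 KD), both after puromycin selection. A single hairpin was used, and the study's text also calls the AN3CA control scrambled. The labels call the cells epithelial and the tissue uterus. The labels number the libraries but do not say that they came from separate cultures, so p-values measure the spread between these libraries, which may be technical.

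A natural antisense transcript is read from the strand opposite to another gene, often a protein-coding gene, and many start close to the partner's promoter, where transcription runs outward in both directions. Most are long noncoding RNAs, and many stay in the nucleus at low level, where the RNA exosome and its cofactors degrade unstable transcripts. Individual antisense transcripts are known for raising or lowering the partner gene, for acting on other genes, or for hosting small RNAs in their introns. *PAX2*, the target of the hairpin, encodes a paired-domain transcription factor of the developing kidney and female reproductive tract.

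The partner is the gene whose symbol stands before -AS. Of the 150 members, 143 had a listed partner, and 134 partners passed the same level and were tested. The other 9 partners were listed below the level, among them *TTN* and *CD27*, and 7 had no row. No partner belonged to more than 1 member. On GRCh37 (hg19, GENCODE release 44), 143 members matched an annotated gene. In 107 the exons of the antisense transcript and the partner overlapped on opposite strands by at least 1 base, and in 15 the gene bodies overlapped but the exons did not. In 18 without any overlap the transcripts ran away from each other from starts within 1000 bases, and 2 lay farther apart. For 1, *HNRNPU-AS1*, the match was the record of its partner *HNRNPU*, so its own position was not known. Over all classes, that match included, 56 members had a start within 1000 bases of the partner's. Many members with overlapping exons or bodies thus also start close to the partner. These classes hold for this annotation, and the gene models behind the TPM values may differ. The library kit keeps the strand of the RNA. Whether the reads were counted by strand is not stated in the sources used here, so where exons overlap, reads of the antisense transcript and of its partner may not have been told apart, and this was not tested.

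The hairpin's target was checked first. *PAX2* stood at 91, 136 and 104 reads in shEV and at 59, 41 and 48 reads in shPAX2, and its log2 fold change was -1.47 (adjusted p 0.000294 in limma). The shPAX2 libraries (19506926 to 29536918 reads) were all deeper than the shEV libraries (10778743 to 18302976 reads). Of 8 epithelial markers only *KRT18* reached the tested level. The epithelial markers summed to 10.9 to 13.3 TPM in shEV and 12.3 to 18 TPM in shPAX2, with *EPCAM* at most 0.387 TPM and *CDH1* at most 0.0851 TPM. The mesenchymal markers summed to 4127 to 4505 TPM in shEV and 3834 to 3947 TPM in shPAX2, nearly all of it *VIM*. Among them, *CDH2* was at most 0.0777 TPM and *FN1* at most 0.827 TPM. Markers of blood, endothelial and stromal cells summed to 1.55 to 2.72 TPM in shEV and 2.32 to 3.30 TPM in shPAX2, with *CD3E*, *PECAM1* and *DCN* not listed. The part of these markers in the results was not tested. In bulk RNA, fewer cells with a transcript and less of it per cell cannot be told apart.

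The promoters of 3 pairs are shown first, because the antisense start lies close to the partner's start and the results turn on whether the transcripts moved together. Each sequence is from RefSeq (GRCh38.p14), runs 5′ to 3′ on the strand of its transcript from 250 bases before to 50 bases after the start, and was placed on GRCh37 by its single exact match. Capitals mark the letters TATAAA (the TATA box), CCAAT (the CAAT box), GGGCGG (the GC box) or the letters GTCACGC, read on either strand. GTCACGC is part of the paired-domain recognition sequence of the family of *PAX2*, *PAX5* and *PAX8*.
ARHGAP5-AS1 promoter, chr14:32545856-32546155 (minus strand): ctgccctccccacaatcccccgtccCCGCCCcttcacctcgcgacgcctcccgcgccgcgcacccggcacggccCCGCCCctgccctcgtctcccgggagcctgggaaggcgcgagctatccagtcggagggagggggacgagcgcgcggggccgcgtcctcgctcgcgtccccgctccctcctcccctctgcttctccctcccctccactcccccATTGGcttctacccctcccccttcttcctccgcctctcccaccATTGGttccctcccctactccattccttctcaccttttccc
ARHGAP5 promoter, chr14:32546260-32546559 (plus strand): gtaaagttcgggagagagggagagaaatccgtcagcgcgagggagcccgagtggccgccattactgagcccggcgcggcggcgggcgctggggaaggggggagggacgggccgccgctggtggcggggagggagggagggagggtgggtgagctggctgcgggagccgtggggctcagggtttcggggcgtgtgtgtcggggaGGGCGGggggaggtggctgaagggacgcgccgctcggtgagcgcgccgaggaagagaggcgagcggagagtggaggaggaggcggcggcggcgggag
ATPBD4-AS1 promoter, chr15:35838146-35838445 (plus strand): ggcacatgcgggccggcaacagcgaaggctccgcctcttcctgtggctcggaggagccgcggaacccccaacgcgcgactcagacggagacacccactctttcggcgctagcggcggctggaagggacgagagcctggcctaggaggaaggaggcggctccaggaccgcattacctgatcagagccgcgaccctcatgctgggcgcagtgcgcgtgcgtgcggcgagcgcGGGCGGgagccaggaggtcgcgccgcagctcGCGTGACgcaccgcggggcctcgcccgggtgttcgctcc
ATPBD4 promoter, chr15:35838317-35838616 (minus strand): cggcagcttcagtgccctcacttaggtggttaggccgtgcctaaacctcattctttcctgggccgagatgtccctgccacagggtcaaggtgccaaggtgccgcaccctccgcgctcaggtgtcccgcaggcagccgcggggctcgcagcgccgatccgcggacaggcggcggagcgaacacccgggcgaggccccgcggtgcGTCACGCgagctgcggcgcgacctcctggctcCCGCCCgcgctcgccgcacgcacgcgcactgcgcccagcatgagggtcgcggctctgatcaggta
BSN-AS2 promoter, chr3:49591750-49592049 (minus strand): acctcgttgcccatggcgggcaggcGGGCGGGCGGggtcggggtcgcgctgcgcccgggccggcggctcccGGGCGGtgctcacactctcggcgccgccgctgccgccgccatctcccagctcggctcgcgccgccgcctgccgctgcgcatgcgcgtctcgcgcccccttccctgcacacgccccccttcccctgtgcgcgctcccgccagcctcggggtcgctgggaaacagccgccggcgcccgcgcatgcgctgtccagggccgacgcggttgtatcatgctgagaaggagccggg
BSN promoter, chr3:49591660-49591959 (plus strand): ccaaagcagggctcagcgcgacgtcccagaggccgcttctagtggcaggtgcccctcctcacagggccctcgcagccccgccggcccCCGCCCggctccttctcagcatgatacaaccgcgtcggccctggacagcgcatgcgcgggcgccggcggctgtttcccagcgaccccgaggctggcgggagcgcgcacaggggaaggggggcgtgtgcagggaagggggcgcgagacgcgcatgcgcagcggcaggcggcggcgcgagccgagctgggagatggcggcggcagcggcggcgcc

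The *ARHGAP5* windows lay 104 bases apart, the *ATPBD4* windows shared 129 bases and the *BSN* windows shared 210 bases. Each of the *ATPBD4* windows held 1 copy of GTCACGC, which was the same letters on the shared stretch. GTCACGC stood in 2.52% of 35116 RefSeq promoters of the same length, in 4 of the 115 members that matched a promoter entry (3.48%), and in 3 of 125 matched partners (2.40%). GGGCGG stood in 63.5% of member promoters, 65.6% of partner promoters and 45.0% of all, CCAAT in 26.1%, 26.4% and 34.6%, and TATAAA in 3.48%, 8% and 11.5%. The median promoter held 27 CpG dinucleotides among members, 26 among partners and 14 among all. Here all means every RefSeq promoter, whether or not its gene was expressed, while members and tested partners were chosen by level. Promoters of the tested genes alone were not compared. A match of letters is not a binding site.

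Most members were expressed at low level. The mean level over the 6 libraries ran from 0.455 to 481 TPM with a median of 2.17 TPM, against a median of 21.8 TPM for the tested partners and 20.4 TPM for all 13163 tested genes. Behind the median member stood 237 reads over the 6 libraries, and 40 members had under 10 reads in some library. In 134 pairs the antisense transcript lay above its partner in 14, and the median antisense level was 9.94% of the partner's. As a description, the levels of antisense transcript and partner had a Pearson r of -0.03 on log2(TPM + 0.5) and a Spearman correlation of -0.02 over these pairs, which all share the 6 libraries. Of the 150 members, 121 reached 0.5 TPM in all 6 libraries. Just inside the level, by the third highest TPM, stood *BCDIN3D-AS1* at 0.529, *STARD4-AS1* at 0.532 and *MORF4L2-AS1* at 0.540 TPM, and just outside it *H1FX-AS1* at 0.467, *EIF1B-AS1* at 0.457 and *CPB2-AS1* at 0.452 TPM.

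**Figure D1:**
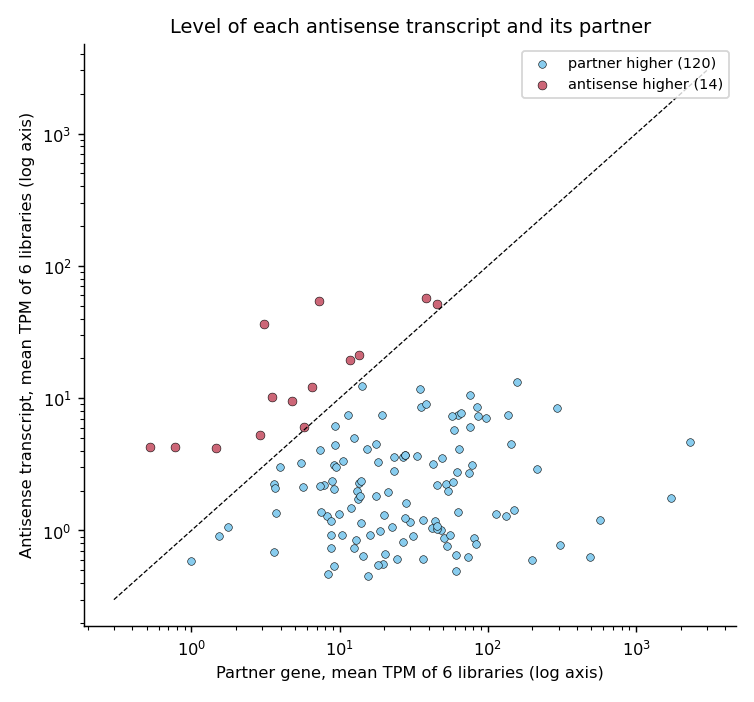
Mean level of each antisense transcript (vertical, TPM, log axis) against that of its partner gene (horizontal, TPM, log axis) over the 6 libraries, with 1 point per tested pair (134). The dashed line marks equal levels, and 14 points lie above it.

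The 5 most abundant members differed between the groups by less than 0.5 on the log2 scale. *C17orf76-AS1* (now *SNHG29*), a host gene of small nucleolar RNAs, stood at 482, 509 and 554 TPM in shEV and 445, 435 and 460 TPM in shPAX2, a log2 fold change of -0.20 (SE 0.07, adjusted p 0.0347). That call was lost under median-of-ratios scaling, at -0.09 with an adjusted p of 0.298, and without shEV replicate 2 (adjusted p 0.0845), shEV replicate 3 (0.116) or shPAX2 replicate 2 (0.125). *FGD5-AS1* stood at 59.0, 60.6 and 68.5 TPM in shEV and 55.1, 57.0 and 55.1 TPM in shPAX2 (log2 fold change -0.16, adjusted p 0.0777). *OIP5-AS1*, known as Cyrano and for binding the microRNA miR-7, stood at 57.4, 47.9 and 55.1 TPM in shEV and 59.2, 62.0 and 59.8 TPM in shPAX2. Its log2 fold change was 0.18 (SE 0.07, adjusted p 0.0828), while its partner *OIP5*, a centromere protein gene, rose by 0.37 (SE 0.11, adjusted p 0.0229). *OIP5-AS1* passed without shEV replicate 1 (adjusted p 0.0481) and under median-of-ratios scaling (0.29, adjusted p 0.00938), and *OIP5* did not pass without shEV replicate 2 or 3 or without shPAX2 replicate 1 or 2 (adjusted p up to 0.0768). *THAP9-AS1* rose. It stood at 46.0, 43.8 and 48.7 TPM in shEV and 59.4, 65.1 and 61.4 TPM in shPAX2, with no overlap, a log2 fold change of 0.42 (SE 0.06, adjusted p 0.000979). Its partner *THAP9* stood at 7.25 TPM over all libraries, with a log2 fold change of -0.15 (adjusted p 0.262). *PITPNA-AS1* overlapped between the groups (log2 fold change -0.24, adjusted p 0.184), and passed without shPAX2 replicate 3 (adjusted p 0.0352).

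Differences between the groups were tested with limma on log2(TPM + 0.5), shPAX2 minus shEV, with adjustment over all 13163 tested genes. This scale understates the change of low genes. A log2 fold change of 1 or more in either direction, beside an adjusted p under 0.05, was the threshold. It was passed by 3 of 150 members, and each was lower in shPAX2. Among all tested genes 4.54% passed (1.43% higher and 3.11% lower). With an adjusted p under 0.05 alone, 40 members passed, 35 lower and 5 higher, against 42.8% of all tested genes (30.5% lower and 12.2% higher). That is 26.7% of the members. The groups did not overlap in 63 members, or 42.0%, against 54.9% of all tested genes. By mean level, 13 of 71 members under 2 TPM passed the adjusted p, against 33.5% of all genes at that level, 20 of 64 from 2 to 10 TPM against 46.8%, and 7 of 15 at 10 TPM or more against 43%. Of the 121 members at the level in every library, 31 were lower and 4 higher at an adjusted p under 0.05.

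The median log2 fold change of the members was -0.24, of the partners -0.13 and of all tested genes -0.10, so the median member lay below the general shift of the table. In 114 members (76%) the log2 fold change was below 0, as in 63.5% of all genes. The split of the calls depended on the scaling. Median-of-ratios scaling moved the median of all genes to 0.01 and gave 27 lower and 8 higher members (member median -0.16), and quantile normalization gave 14 lower and 15 higher (member median -0.04). Of all tested genes, 41.4% were called under median-of-ratios scaling, with 47.4% of those calls lower. Under quantile normalization 36.9% were called, with 51.3% of those calls lower. *SOCS2-AS1*, *ARHGAP5-AS1* and *ATPBD4-AS1* were lower under each of these scalings. For *SOCS2-AS1*, which passed the level through shEV alone, that direction was built into its choice.

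**Figure D2:**
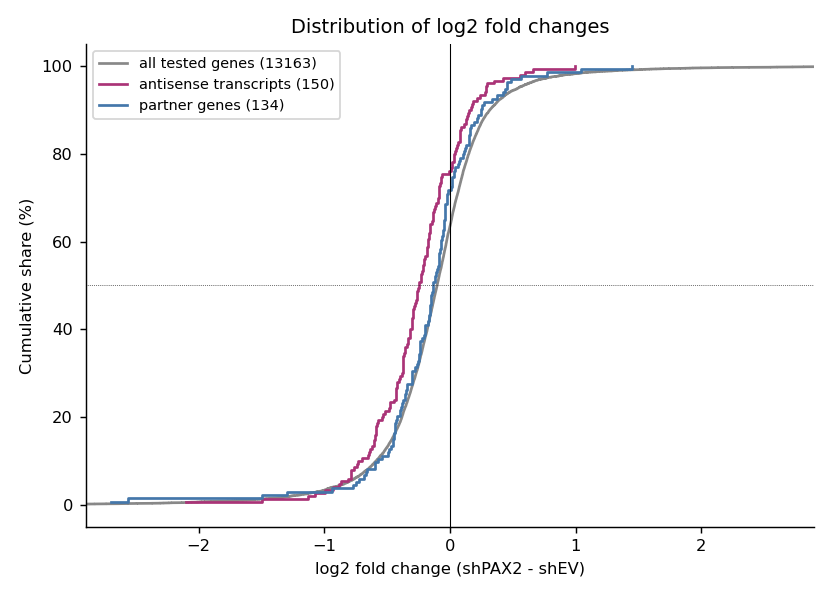
Cumulative share of genes (vertical, %) by log2 fold change, shPAX2 minus shEV (horizontal), for all 13163 tested genes, the 150 antisense transcripts and the 134 tested partners. The antisense curve lies to the left at the dotted 50% line, with a median of -0.24 against -0.10 for all genes.

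*SOCS2-AS1* was read in shEV and not in shPAX2. It lies on chromosome 12 from 93935798 to 93965544 (minus strand) and overlaps the exons of *SOCS2*, an inhibitor of cytokine signalling through JAK and STAT proteins, by 277 bases. It stood at 2.92, 1.77 and 0.772 TPM in shEV, from 9, 9 and 4 reads, and at 0 reads in each shPAX2 library. Taking 3 reads per library as the most that a count of 0 allows, it was at least 4.32-fold lower (adjusted p 0.00122 in limma). Floors cover counting error only. It passed the level through shEV alone, so a difference was built into its choice. *SOCS2* stood at 3.18, 2.94 and 2.80 TPM in shEV, from 67, 102 and 99 reads, and at 0.133, 0.0757 and 0.0523 TPM in shPAX2, from 8, 4 and 2 reads. The means were 2.97 ± 0.195 and 0.0871 ± 0.0417 TPM (SD, n = 3 each), and the log2 fold change was -2.57 (SE 0.15, adjusted p 5.85e-06). *SOCS2* too reached 0.5 TPM in shEV alone, so for both rows the separation of the groups was built into the choice, and the p-values are no independent support.

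*ARHGAP5-AS1* fell with *ARHGAP5*, which encodes a GTPase-activating protein. The antisense transcript lies on chromosome 14 from 32544152 to 32545999 (minus strand), overlaps *ARHGAP5* exons by 304 bases, and its promoter is shown above. The overlap rests on the GENCODE start of *ARHGAP5* at 32545320. The RefSeq promoter window of *ARHGAP5* begins at 32546260, beyond the antisense transcript, and with that start the exons would not overlap. In the following values, *ARHGAP5-AS1* comes first. *ARHGAP5-AS1* stood at 11.9, 9.10 and 10.9 TPM in shEV and 3.98, 3.30 and 3.04 TPM in shPAX2, a log2 fold change of -1.50 (SE 0.13, adjusted p 4.18e-05). *ARHGAP5* stood at 141, 138 and 150 TPM in shEV and 51.6, 49.5 and 50.4 TPM in shPAX2, a log2 fold change of -1.49 (SE 0.06, adjusted p 3.92e-07). The groups were apart in both rows. The log2 ratio of antisense to partner differed by -0.0037 between the groups (SE 0.13), and it overlapped.

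*ATPBD4-AS1* (now *DPH6-DT*) fell further than its partner *ATPBD4* (now *DPH6*), an enzyme gene of diphthamide synthesis, the modification of a histidine of elongation factor 2. In GENCODE it starts on chromosome 15 at 35838355 (plus strand) and shares 40 exon bases with *ATPBD4*. The overlap rests on the GENCODE starts. The RefSeq promoter windows shown above place the 2 starts in the opposite order, and with those starts the exons would not overlap. *ATPBD4-AS1* comes first in the following values. *ATPBD4-AS1* stood at 4.92, 4.14 and 4.80 TPM in shEV and 1.90, 1.81 and 1.80 TPM in shPAX2, a log2 fold change of -1.13 (SE 0.12, adjusted p 0.000119). *ATPBD4* stood at 6.20, 6.50 and 6.53 TPM in shEV and 4.38, 4.56 and 4.96 TPM in shPAX2, a log2 fold change of -0.43 (SE 0.09, adjusted p 0.0055), which was not called under quantile normalization (-0.20, adjusted p 0.129). The groups did not overlap in either row. The log2 ratio of the pair was lower in shPAX2 by 0.70 (difference -0.70, SE 0.11) with no overlap, and p was 0.1 by an exact permutation test (two-sided), as small as 3 against 3 libraries can give.

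**Figure D3:**
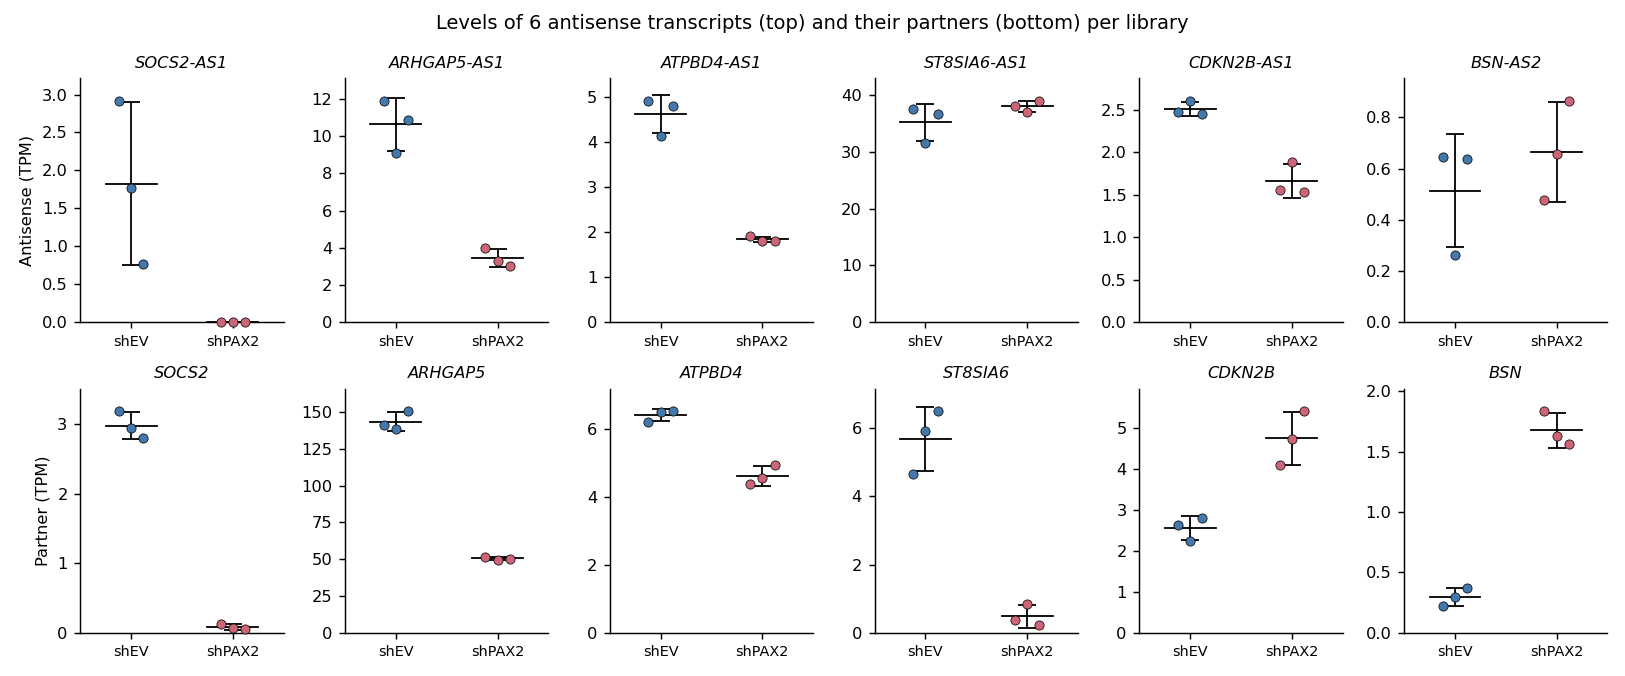
Level in TPM (vertical, from 0) of 6 antisense transcripts (top row) and their partners (bottom row) in each shEV and shPAX2 library, with points for libraries, horizontal lines for means and bars for SD (n = 3). *SOCS2-AS1*, *ARHGAP5-AS1* and *ATPBD4-AS1* lie lower in shPAX2 with their partners, while *ST8SIA6-AS1* and *BSN-AS2* overlap between groups whose partners are apart.

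Other members fell below the fold threshold. The following were chosen after their values were seen. *FUT8-AS1*, opposite the core fucosyltransferase gene *FUT8*, stood at 3.50, 4.86 and 4.65 TPM in shEV and 1.87, 2.27 and 1.62 TPM in shPAX2. Its log2 fold change was -0.99 (SE 0.16, adjusted p 0.00122), beside -0.66 for *FUT8* (SE 0.06, adjusted p 7.92e-05). *DLX6-AS1*, known as Evf2 and opposite the homeobox gene *DLX6*, fell from 7.93 ± 0.105 to 4.38 ± 0.252 TPM and *DLX6* from 11.4 ± 0.803 to 7.36 ± 0.140 TPM (SD, n = 3 each; adjusted p 0.000181 and 0.000538 in limma). *SLC7A11-AS1* fell by 0.86 on the log2 scale (adjusted p 0.00121), while *SLC7A11*, the cystine and glutamate exchanger gene, stood at -0.12 (adjusted p 0.594). *IDH1-AS1* fell by 0.79 from only 40 reads in all (adjusted p 0.0344), beside -0.38 for *IDH1*, isocitrate dehydrogenase (adjusted p 0.00156). *DENND5B-AS1* rested on 23 reads in all and had at most 3 reads in each shPAX2 library (adjusted p 0.0388). *HEXA-AS1*, the other member at 0.5 TPM in every shEV library and no shPAX2 library, stood at 0.766, 0.803 and 1.08 TPM in shEV and 0.317, 0.499 and 0.421 TPM in shPAX2 (log2 fold change -0.60, adjusted p 0.0256). Its choice too rested on shEV, and the call was lost without any of 5 of the 6 libraries in turn, with adjusted p up to 0.0882. *HEXA*, a lysosomal hexosaminidase gene, stood at 0.11 (adjusted p 0.183).

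The 5 members that rose were *BRE-AS1*, *SLFNL1-AS1*, *TLR8-AS1*, *THAP9-AS1* and *ZNF674-AS1*. *BRE-AS1* stood at 1.01, 0.614 and 0.400 TPM in shEV, from 9, 9 and 6 reads, and at 1.58, 1.79 and 2.04 TPM in shPAX2, from 40, 40 and 33 reads. It reached 0.5 TPM in every shPAX2 library but not in every shEV library, so its choice rested on shPAX2. Its log2 fold change of 0.998 fell just short of the threshold (SE 0.21, adjusted p 0.00485), and its partner *BRE* (now *BABAM2*), of a BRCA1-containing complex, stood at 0.07 (adjusted p 0.472). *SLFNL1-AS1* rose by 0.60 (adjusted p 0.0216), while *SLFNL1* had 1 read in all. *TLR8-AS1*, whose partner has no row, rose by 0.56 (adjusted p 0.0404), and *ZNF674-AS1* by 0.28 (adjusted p 0.0487).

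Several well-studied members were named whatever their change. *ZEB1-AS1*, opposite the epithelial-mesenchymal transition factor *ZEB1*, stood at 7.66, 8.74 and 9.31 TPM in shEV and 6.52, 5.77 and 6.34 TPM in shPAX2. Its log2 fold change was -0.43 (SE 0.10, adjusted p 0.0076), and *ZEB1* stood at -0.02 (adjusted p 0.852). *MAPKAPK5-AS1* fell by 0.43 (adjusted p 0.00199) and *GABPB1-AS1*, opposite a subunit gene of the GA-binding protein, by 0.48 (adjusted p 0.00688). Their partners stood at -0.04 (adjusted p 0.684) and -0.09 (adjusted p 0.398), and both partners and *ZEB1* changed sign under median-of-ratios scaling. *ZEB1-AS1* and *GABPB1-AS1* were not called under quantile normalization. *TTN-AS1* stood at 5.74, 5.03 and 4.77 TPM in shEV and 4.34, 3.90 and 4.20 TPM in shPAX2 (adjusted p 0.0551), while *TTN*, the giant muscle protein titin, had 30 reads in all over a length of 116854 bases.

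The partners were examined as a group. Of 134 tested partners, 6 passed the fold threshold, or 4.48% beside the 4.54% of all tested genes. *ST8SIA6*, *SOCS2*, *ARHGAP5* and *FOXN3* were lower, and *BSN* and *SERTAD4* were higher. Of these 6, *SOCS2* and *BSN* reached the tested level in a single group, so a difference was built into their choice. The choice of *ST8SIA6* rested on shEV, since not every shPAX2 library reached the level. At an adjusted p under 0.05, 58 partners passed (43.3%), 46 lower and 12 higher, again near the 42.8% of all genes. Median-of-ratios scaling gave 33 lower and 28 higher partners, and quantile normalization 33 lower and 23 higher. Of all tested genes, these scalings called 41.4% and 36.9%, with 47.4% and 51.3% of the calls lower. Their groups did not overlap in 74 cases, or 55.2%.

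The antisense transcripts and partners were then compared pair by pair. Of 134 pairs, 104 had an antisense log2 fold change below 0 and 96 a partner log2 fold change below 0. Both rows lay below 0 in 76 pairs and above 0 in 10. The antisense transcript was lower and the partner higher in 28, and the reverse held in 20. These counts depended on the scaling, since both rows lay below 0 in 54 pairs under median-of-ratios scaling and in 50 under quantile normalization. At an adjusted p under 0.05, 36 antisense transcripts and 58 partners of these pairs were called, beside 42.8% of all tested genes. With both rows called, 18 pairs were lower together, 1 pair moved in opposite directions, and none rose together, while 17 antisense transcripts and 39 partners were called without the other. Under median-of-ratios scaling 12 pairs were lower together, 2 higher together and 4 opposite, and under quantile normalization 5, 3 and 1. Given how many rows were called singly, nothing particular to the pairs is read from these counts. Of the 18 pairs on the TPM scale, the *ARHGAP5* and *SOCS2* pairs were the only ones with both rows past the fold threshold. The log2 ratio did not overlap between the groups in 47 pairs, 7 pairs differed by at least 1, and the median difference was -0.17.

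**Figure D4:**
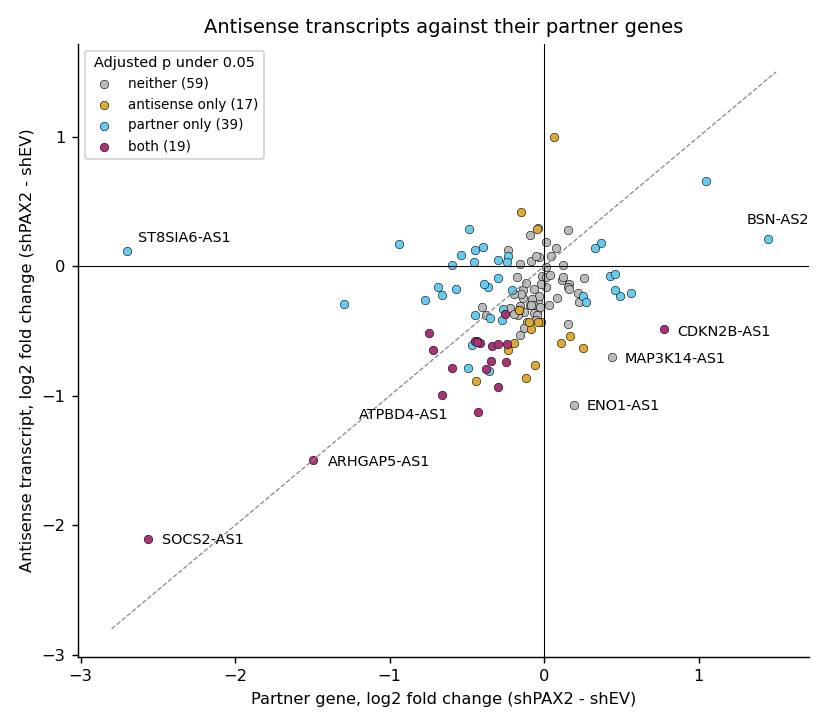
Log2 fold change, shPAX2 minus shEV, of each antisense transcript (vertical) against its partner (horizontal) for the 134 tested pairs, coloured by which rows had an adjusted p under 0.05. The dashed line marks equal change; the *SOCS2* and *ARHGAP5* pairs lie near it at the lower left, and *ST8SIA6-AS1* lies far above it.

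As a description, the log2 fold changes of the 134 pairs had a Pearson r of 0.38 and a Spearman correlation of 0.28. All pairs share the 6 libraries. Without the *SOCS2* and *ARHGAP5* pairs, a choice made after the values were seen, r was 0.17 and the Spearman correlation 0.25. In the 96 pairs with overlapping exons r was 0.54, and 0.26 without those pairs. In the 38 other pairs r was 0.09. These include the *ST8SIA6* pair, the widest of all, with log2 fold changes of 0.11 (antisense) and -2.70 (partner). Their r was not computed without it, so no difference between these sets of pairs is read from r.

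The pairs that came apart most were led by *ST8SIA6*, a sialyltransferase gene. *ST8SIA6-AS1* stood at 37.5, 31.5 and 36.6 TPM in shEV and 38, 37 and 39 TPM in shPAX2 (log2 fold change 0.11, SE 0.07, adjusted p 0.245). *ST8SIA6* stood at 4.66, 5.91 and 6.50 TPM in shEV and 0.374, 0.849 and 0.220 TPM in shPAX2 (log2 fold change -2.70, SE 0.23, adjusted p 5.3e-05). It reached 0.5 TPM in every shEV library but not in every shPAX2 library, so its choice rested on shEV. The gene bodies overlap on chromosome 10 but the exons do not. The antisense groups overlapped and the partner groups did not. The log2 ratio was higher in shPAX2 by 2.81 (SE 0.34).

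*CDKN2B-AS1*, known as ANRIL, and *CDKN2B*, which encodes the cyclin-dependent kinase inhibitor p15, were the pair called in opposite directions on the TPM scale. *CDKN2B-AS1* stood at 2.48, 2.61 and 2.45 TPM in shEV and 1.55, 1.89 and 1.53 TPM in shPAX2 (log2 fold change -0.48, SE 0.13, adjusted p 0.0153). *CDKN2B* stood at 2.62, 2.24 and 2.81 TPM in shEV and 4.1, 4.73 and 5.4 TPM in shPAX2 (log2 fold change 0.78, SE 0.13, adjusted p 0.00182). Neither row overlapped between the groups. The antisense call was lost under quantile normalization (-0.20, adjusted p 0.233) and without shEV replicate 2 (adjusted p 0.0508) or shPAX2 replicate 3 (adjusted p 0.0533). *CDKN2B* lies within the body of *CDKN2B-AS1* on chromosome 9, with no shared exon bases.

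*BSN*, which encodes the presynaptic scaffold Bassoon, rose without *BSN-AS2* (now *BSN-DT*), although their starts lie 111 bases apart and their promoter windows shown above overlap. *BSN* stood at 0.222, 0.298 and 0.375 TPM in shEV and 1.83, 1.63 and 1.56 TPM in shPAX2 (log2 fold change 1.45, SE 0.16, adjusted p 0.000185). *BSN-AS2* stood at 0.644, 0.261 and 0.638 TPM in shEV and 0.477, 0.655 and 0.866 TPM in shPAX2 (log2 fold change 0.21, SE 0.23, adjusted p 0.477), from 94 reads in all. *BSN* reached 0.5 TPM in shPAX2 alone, so that it became a tested partner only through the group where it was higher. The antisense groups overlapped.

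Both other pairs of the 5 widest had no row that passed. *ENO1-AS1* stood at 2.51, 1.01 and 4.47 TPM in shEV, from 6, 4 and 18 reads, and 0.732, 1.16 and 0.689 TPM in shPAX2, from 5, 7 and 3 reads (log2 fold change -1.07, SE 0.43, adjusted p 0.0949). It passed only without shEV replicate 2, at -1.52 with an adjusted p of 0.00494 (0.00494 was the lowest over the alternatives). *ENO1*, the glycolytic enolase, stood at 1559, 1565 and 1664 TPM in shEV and 1575, 1964 and 1960 TPM in shPAX2 (adjusted p 0.109), and passed without shPAX2 replicate 1 (adjusted p 0.00309). *MAP3K14-AS1* stood at -0.70 (adjusted p 0.075) and *MAP3K14*, the NF-kappa-B-inducing kinase, at 0.44 (adjusted p 0.129). The antisense row passed without shEV replicate 3 (adjusted p 0.0316) and the partner row without shPAX2 replicate 1 (adjusted p 0.00154). Next in width, chosen after their values were seen, were *PRKG1*, a cGMP-dependent kinase, at -0.94 (adjusted p 0.00106) with *PRKG1-AS1* at 0.17 (adjusted p 0.509), and *FOXN3*, a forkhead repressor, at -1.30 (adjusted p 1.45e-05) with *FOXN3-AS1* at -0.29 (adjusted p 0.17).

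Position relative to the partner was set beside the change. Of the 107 members whose exons overlap the partner's, 31 passed an adjusted p under 0.05 (28 lower), or 29% against 42.8% of all tested genes (30.5% lower), with a median log2 fold change of -0.30. Of the 15 with overlapping bodies only, 5 passed (4 lower), or 33.3%, with a median of -0.22. Of the 18 divergent members, 2 passed, both lower, or 11.1%, with a median of -0.07, while 9 of their 18 partners passed, with a median of -0.07. The classes do not separate close from distant starts, since many members with overlap also start within 1000 bases of the partner. The difference between the position classes was not tested.

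**Figure D5:**
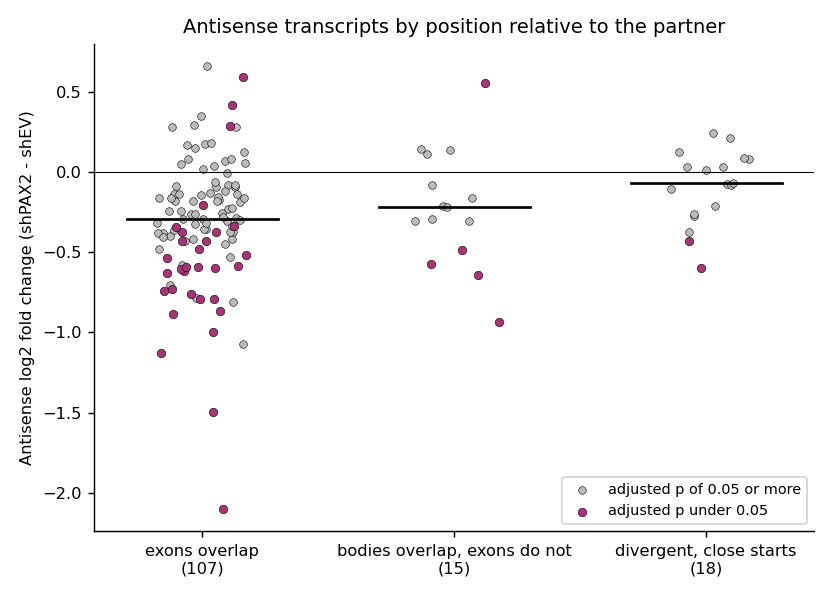
Log2 fold change, shPAX2 minus shEV, of antisense transcripts (vertical) by position relative to the partner (107, 15 and 18 members), with a horizontal line at each median and purple points for an adjusted p under 0.05. The medians are -0.30, -0.22 and -0.07 from left to right.

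Genes of RNA decay and of transcription termination, some of which act on unstable antisense transcripts in the nucleus, were examined for their levels. Of 39 listed and tested, 11 passed an adjusted p under 0.05, 3 higher and 8 lower, or 28.2% against 42.8% of all tested genes, and none passed the fold threshold, against 4.54%. The median log2 fold change was 0.03. Median-of-ratios scaling gave 13 higher and 2 lower, beside 41.4% of all tested genes called, so the direction depended on the scaling. The row *MPP6* (-0.60) may belong to a membrane scaffold gene that shares the symbol, since *MPHOSPH6* has a row of its own, and without it 10 of 38 passed. *RBM7*, of the nuclear exosome targeting complex, rose by 0.45 (adjusted p 0.0013), *NCBP2*, a cap-binding subunit, by 0.27 (adjusted p 0.0126) and *EXOSC3*, an exosome subunit, by 0.22 (adjusted p 0.0213). *XRN1*, an exonuclease, fell by 0.28 (adjusted p 0.0192) and *PCF11*, a termination factor, by 0.22 (adjusted p 0.0183). The count was lowest without shPAX2 replicate 2, at 3, and was 7 without shEV replicate 3 or shPAX2 replicate 3.

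The count of called members was likewise lowest without shPAX2 replicate 2, at 23 (21 lower and 2 higher), in place of 40. The share of all tested genes called with a library left out is not given here. Nothing particular to members or decay genes is therefore read from these counts. Past the fold threshold the count was 7 without shPAX2 replicate 1, 6 without shEV replicate 1, 5 without shEV replicate 2 or shPAX2 replicate 2, and 4 without either other library, in place of 3.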

How the data were processed

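Total RNA of 6 AN3CA libraries (3 shEV, 3 shPAX2) was sequenced with a strand-preserving kit. The authors deposited TPM values for 17471 genes named by symbol. The submitters' processing notes name bcl2fastq, STAR, Subread, featureCounts, edgeR and hg19, without roles or versions. Use of strand in counting is not given in the sources used here. Values of a gene were whole multiples of 1 read (tolerance 0.0001), so reads and gene lengths were recovered for 100.0% of genes. After restoring a common factor in 295 genes, the totals were 10778743, 17436023 and 18302976 reads (shEV) and 29536918, 26934733 and 19506926 reads (shPAX2). Reads have no molecular identifiers.

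Genes with at least 0.5 TPM in 3 libraries (13163) were tested with limma 3.58.1 in R 4.3.3 (lmFit, eBayes with trend and robust, no covariate, two-sided, Benjamini-Hochberg) on log2(TPM + 0.5). The test was checked on simulated data with changes placed only in genes of many reads. That check therefore does not cover members with few reads. The members, lists and naming rule were chosen with earlier results of these data known. Named were *PAX2*, members past the threshold with their partners, the 5 most abundant, the 5 widest pairs, members reaching the level in a single group, 7 well-studied symbols (5 of them members) and the 3 members on either side of the level. Correlations are descriptions.

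Positions came from GENCODE release 44 on GRCh37, with 116 members matched directly and 27 through RefSeq synonyms. For *HNRNPU-AS1* the synonym led to the record of its partner. Promoters came from RefSeq (GRCh38.p14). No entry matched 35 members, among them *ST8SIA6-AS1* and *SOCS2-AS1*. Alternatives were other pseudocounts, filters and scalings, a replicate block, moderation without trend, voom on recovered reads, removal of chromosome 6 and of each library. A correlation without the *SOCS2* and *ARHGAP5* pairs was added after seeing the data.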

Additional observations from a re-analysis of the deposited data

How the results depend on the processing

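*SOCS2-AS1* (-4.52 to -1.42), *ARHGAP5-AS1* (-1.60 to -1.27) and *ATPBD4-AS1* (-1.28 to -0.87) stayed lower with an adjusted p under 0.05 in every alternative that tested them. *SOCS2-AS1* was not tested with the filter at 1 TPM. It passed the level through shEV alone, so its direction was built into its choice and its adjusted p-values are no independent support. Members past the fold threshold numbered 3, but 7 with a pseudocount of 0.1 and 7 with voom on recovered reads, and 4 to 7 when each library was left out. Members at an adjusted p under 0.05 ran from 23 to 43, and decay genes from 3 to 12, when each library was left out. The correlation across pairs was 0.0858 without pairs whose exons overlap and 0.17 without the *SOCS2* and *ARHGAP5* pairs (added after seeing the data). The value of 0.0858 includes the *ST8SIA6* pair, the widest, and was not computed without it. Why these values changed was not tested.

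Libraries of the same number did not deviate together (correlations -0.0523, 0.0815 and 0.0014, with best matches of replicates 1 to 3 at 3, 2 and 1). With the replicate block 38 members and 55 partners had an adjusted p under 0.05, 3 and 5 passed the fold threshold, and *HEXA-AS1* had an adjusted p of 0.0508. The share of all tested genes called with that block is not given here.

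Direction turned in rows that were not called: *ZEB1* (0.0915), *MAPKAPK5* (0.0718), *GABPB1* (0.0225) and *MORF4L2* (0.0559) under median-of-ratios scaling, *MAPKAPK5* (0.0230) and *THAP9* (0.0576) under quantile normalization, and *STARD4-AS1* (-0.0207) with voom. When each library was left out, *ZEB1* ran from -0.0777 to 0.0430, *MAPKAPK5* from -0.0914 to 0.0225, *BCDIN3D-AS1* from -0.0155 to 0.34, *STARD4-AS1* from -0.0825 to 0.18 and *MORF4L2-AS1* from -0.10 to 0.27. The difference within the *ARHGAP5* pair became 0.10 with a pseudocount of 1 and 0.21 under quantile normalization, and ran from -0.0843 to 0.0887 when each library was left out. That of the *SOCS2* pair became -0.0300 with a pseudocount of 0.1. Over 42 named genes, 608 other values kept their side of the threshold, 18 became significant and 23 lost significance. Depth limits members with few reads: 31 had under 100 reads over the 6 libraries.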
